A study of Mus musculus with 47 samples.

Results

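Fos, Fosb, Jun, Junb, Atf3, Egr1, Egr2, Ppp1r15a, Gadd45b and Gadd45g are 10 immediate early and stress response genes, and all 10 were listed in every count file among 23416 genes. They were selected on values of the sperm libraries described here, since Ppp1r15a and Egr2 had been seen to be higher in the spermatozoa of both KO generations. RNA was sequenced from liver and from swim-up motile cauda epididymal spermatozoa of male mice of 8 to 12 weeks, with 2 libraries per group. Ctrl-F1 males, the controls, and KO-F1 males (both of background strain BDF2) were made by intracytoplasmic injection of testicular sperm from wild-type and from Scml2-KO (-/y) fathers. KO-F2 males (BDF3) came from natural mating of KO-F1 males with C57BL/6 females. Scml2 is X-linked, so KO-F1 sons carry a wild-type allele from their mothers and the label KO names the father or grandfather. Both KO-F2 libraries carry the same run name and no run is given for F1 spermatozoa, so generation, background strain and run cannot be told apart, and there is no Ctrl-F2 group.

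Immediate early genes are transcribed within minutes of a stimulus without new protein synthesis. FOS, FOSB, JUN, JUNB and ATF3 are leucine zipper proteins that pair into AP-1 and related dimers, and EGR1 and EGR2 are zinc finger activators induced by growth factor signalling. PPP1R15A (GADD34) guides protein phosphatase 1 to eIF2α and so reverses the translational block of the integrated stress response, and GADD45B and GADD45G bind MAP kinase kinase kinase 4 and cell cycle proteins. Mature spermatozoa are held to be transcriptionally silent and carry RNA made during spermatogenesis or taken up in the epididymis.

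Stretches upstream of 6 of the genes, those that the sperm results turn on, are shown because sites of this kind link these genes to the signals that induce them. All positions are GRCm38.p6, and the sequences are RefSeq's, read 5′ to 3′ on the gene's own strand. Capitals mark the cAMP response element (TGACGTCA) or its core (TGACG), the amino acid response element (TGATGNAA) and, in Egr2, the CArG box that serum response factor binds, each on either strand. The first 4 stretches are the 150 bases before the start site, and the stretches of Ppp1r15a and Egr2 are 30 bases around the site.
Fos, chr12:85473740-85473889, plus strand: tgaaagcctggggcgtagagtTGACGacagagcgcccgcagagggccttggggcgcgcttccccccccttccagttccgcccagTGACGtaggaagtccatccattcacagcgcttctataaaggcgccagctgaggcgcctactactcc
Junb, chr8:84978749-84978898, minus strand: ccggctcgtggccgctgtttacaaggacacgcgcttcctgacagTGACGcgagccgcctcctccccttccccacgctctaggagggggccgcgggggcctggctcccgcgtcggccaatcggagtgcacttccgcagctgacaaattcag
Atf3, chr1:191183334-191183483, minus strand: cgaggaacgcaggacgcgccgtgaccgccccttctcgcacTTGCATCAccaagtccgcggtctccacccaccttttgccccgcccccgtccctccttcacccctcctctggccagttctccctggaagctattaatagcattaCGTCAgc
Gadd45g, chr13:51846525-51846674, plus strand: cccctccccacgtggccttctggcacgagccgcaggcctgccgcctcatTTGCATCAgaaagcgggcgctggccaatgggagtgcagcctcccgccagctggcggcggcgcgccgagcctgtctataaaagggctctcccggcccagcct
Ppp1r15a, chr7:45526269-45526298, minus strand: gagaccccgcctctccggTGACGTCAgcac
Egr2, chr10:67537787-67537816, plus strand: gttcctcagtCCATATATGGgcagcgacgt

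The 32851 RefSeq start sites used here included starts of 9 of the 10 genes, and Egr1 was missing from them and not searched. Before each start site, 7 motifs were searched on both strands in 250 bases. Ppp1r15a held a full cAMP response element 12 to 5 bases before its start, a match found before 1.55% of all start sites. The Egr2 start at 67537869, 1 of several that RefSeq lists, held a CArG box 72 to 63 bases upstream, against 1.47% of all starts. The RefSeq Select start of Egr2, at 67535499, held neither that box nor the TGACG core, and more than 1 start of this gene was searched. Gadd45g (from -101 to -94) and Atf3 (from -110 to -103) both held the amino acid response element, which 3.45% of starts held. The TGACG core was in Fos (from -129 and from -66), Fosb, Junb, Atf3 and Egr2, and by overlap in the full element of Ppp1r15a, against 17.8% of all starts. TATAAA was found in Fos, Gadd45b and Gadd45g (12.4% of starts) and the EGR site GCGNGGGCG in Fosb and Gadd45b (4.7%), and the AP-1 site TGANTCA in none of the 9 (6.75%). A match in letters is a description of these windows only.

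Ppp1r15a lies on chromosome 7 (45522917 to 45526268, minus strand, 3 exons), and its 3′ end meets Tulp2, a testis gene on the other strand, with which its curated exons share 11 bases. The sperm kit does not mark strand, so reads there could not be assigned by strand. Tulp2 stood at 111 and 46.2 normalised counts per 1000000 (CPM) in the controls, 16.4 and 30.7 in KO-F1 and 103 and 75.4 in KO-F2 spermatozoa, so that the controls were not its lowest group. Egr2 lies on chromosome 10 (67534469 to 67542188, plus strand) and overlaps an uncharacterised transcript on the other strand that the count files do not list. The other 8 genes overlap no annotated gene.

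Library totals ranged from 11339729 to 14278900 counts in liver and from 1503733 to 2778171 in F1 spermatozoa, and were 8384266 and 11462105 for KO-F2, so that 3 counts, the detection floor, stood for at most 0.265, 2.0 and 0.358 CPM. Of 20 late spermatogenesis markers, 18 to 20 had at least 10 counts in each sperm library and 16 were at 0 in liver. All 10 hepatocyte markers had at least 10 counts in each liver library and 1 or 2 did in spermatozoa, where Ttr was at 0. Scml2 itself had 0 counts in all liver libraries and 0 to 18 in spermatozoa. It could not check a label at any depth, since KO names the father or grandfather. The summed late spermatogenesis markers stood at 119411 and 134804 CPM of the library total in the controls, 44641 and 59374 in KO-F1 and 150281 and 153837 in KO-F2 spermatozoa. Leukocyte markers (13 of 14 listed) summed to 178 to 529 CPM in F1 libraries, against 2578 and 3954 CPM for KO-F2. Of the 13, Cd3e and S100a9 were at 0 in all 4 F1 libraries, and all 13 had counts in KO-F2. Epididymal epithelium markers (17 of 17) summed to 7965 to 23662 CPM in F1 libraries, against 2070 and 4180 CPM for KO-F2. Single markers of this list went both ways, as given below. Fewer cells of a type and less RNA per cell cannot be told apart in such bulk libraries.

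Ppp1r15a and Egr2 were chosen for their sperm pattern, so the values that follow describe it and carry no test. Levels are CPM after TMM normalization (edgeR) over the 6 sperm libraries. Ppp1r15a stood at 4.74 and 2.52 CPM in the controls (11 and 3 counts), 45.3 and 67.8 in KO-F1 and 49.4 and 39.8 in KO-F2 spermatozoa. Every KO library was above both controls, and the KO generations overlapped. Of all genes tested, 28.6% were higher than Ctrl-F1 without overlap in KO-F1 and 28.6% in KO-F2, and the share in both was not counted. The means were 3.63 ± 1.57, 56.5 ± 15.9 and 44.6 ± 6.78 CPM (SD, n = 2), and the edgeR log2 fold change against Ctrl-F1 was 3.86 (SE 0.71) in KO-F1 and 3.55 (SE 0.54) in KO-F2. Both differences share the same 2 controls.

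Egr2, an activator best known from hindbrain and Schwann cells, had 0 and 1 counts in the controls, 53 and 78 in KO-F1 and 133 and 160 in KO-F2 spermatozoa. In CPM these were 0 and 0.84, 15.8 and 33.3, and 11.7 and 19.4. Every KO library was thus above both controls, which lay at or under the floor of 3 counts. With a single count in the control group, the ratio of summed counts per normalised library size was 80.6 in KO-F1 and 52.6 in KO-F2. The 95% exact intervals were 14.2 to 3209 and 9.36 to 2084. They cover counting error only, since the cDNA was amplified and the libraries of each group were summed. Egr2 was chosen on these values, so the intervals show how loosely 1 control count fixes the ratio and are no test of a difference. Egr1, its close relative induced by the same signals, did not share this pattern. Egr1 stood at 31.5 and 76.4 CPM in the controls, 20.2 and 21.3 in KO-F1 and 67.9 and 124 in KO-F2 spermatozoa, so that KO-F1 lay below both controls and KO-F2 overlapped them.

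Gadd45g was also above both controls in every KO library, but its level differed between the generations. It stood at 5.6 and 2.52 CPM in the controls (13 and 3 counts), 83.4 and 57.1 in KO-F1 and 12.7 and 9.82 in KO-F2 spermatozoa. No 2 of the 3 groups overlapped, and the share of all genes for which this held was not counted. The log2 fold change was 3.99 (SE 0.67) in KO-F1 and 1.42 (SE 0.77) in KO-F2 against Ctrl-F1, and -2.45 (SE 0.39) in KO-F2 against KO-F1. Gadd45b, its paralog and a target of NF-κB, stood at 18.1 and 7.56 CPM in the controls, 8.63 and 6.82 in KO-F1 and 15.2 and 14.4 in KO-F2, and both KO groups overlapped the controls. Summed over Ppp1r15a, Gadd45b and Gadd45g, the level was 28.4 and 12.6 CPM in the controls, 137 and 132 in KO-F1 and 77.3 and 64.0 in KO-F2 spermatozoa.

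The AP-1 genes showed another arrangement, with KO-F2 alone above the rest, by a wide margin only for Junb, Fos and Atf3. Junb, a JUN family member that often restrains JUN, stood at 72.0 and 42.8 CPM in the controls, 77.4 and 72.9 in KO-F1 and 401 and 468 in KO-F2 spermatozoa. Fos, the partner that forms AP-1 with JUN proteins, stood at 76.7 and 51.2, 16.1 and 58.8, and 208 and 313 CPM in the same order. Both KO-F2 libraries lay above all 4 F1 libraries for these genes. Atf3, an AP-1 relative induced by many stresses, stood at 24.1 and 21.8, 2.98 and 19.6, and 94.8 and 105 CPM. Jun stood at 70.2 and 11.8, 27.1 and 11.1, and 92.7 and 138 CPM, and Fosb at 16.4 and 3.36, 0 and 18.3, and 22.0 and 24.3 CPM. For all 5 AP-1 genes KO-F2 lay above all F1 libraries and the margin was smallest for Fosb (22.0 against 18.3 CPM) and Jun (92.7 against 70.2 CPM). Of all genes tested, 28.6% were higher in KO-F2 without overlap against Ctrl-F1 and 33.9% against KO-F1. The share of genes above all 4 F1 libraries was not counted. The summed AP-1 level was 131 to 259 CPM in the controls, 124 and 181 in KO-F1 and 819 and 1049 in KO-F2 spermatozoa.

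**Figure D1:**
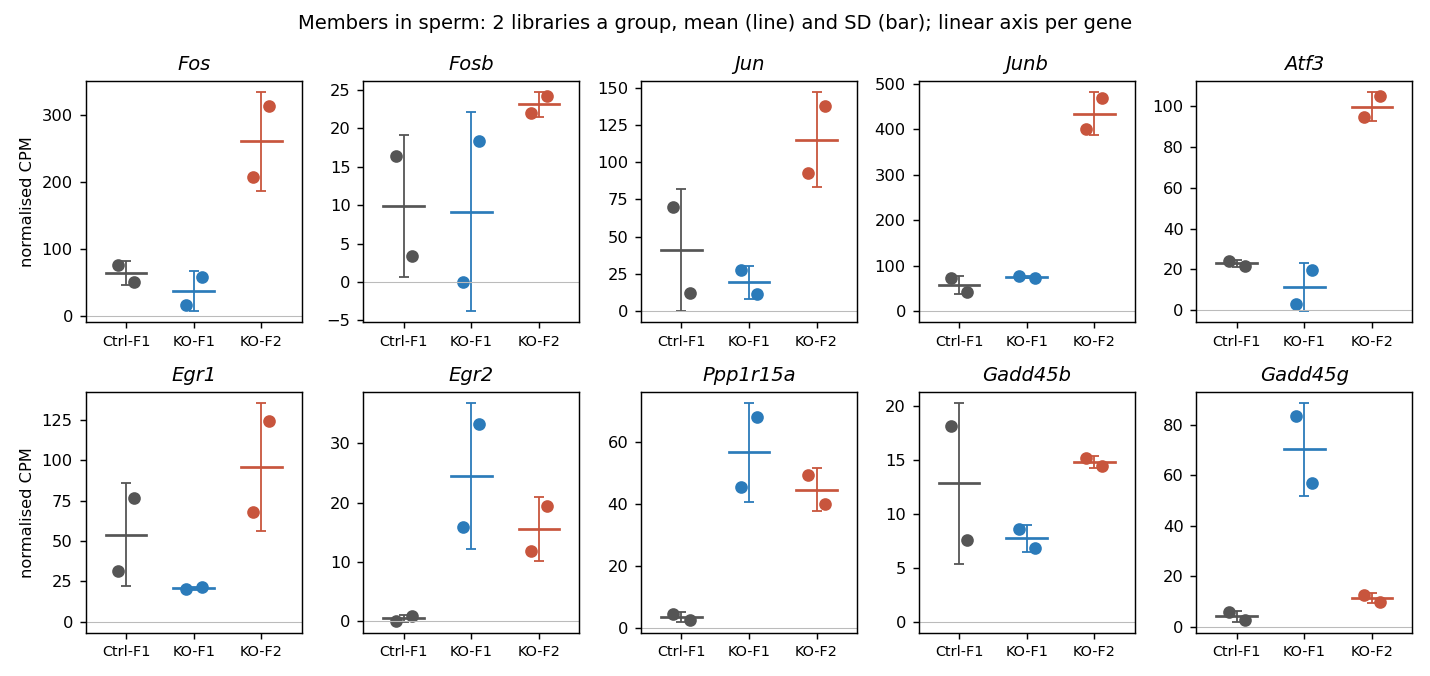
Normalised CPM (linear vertical axis, scaled per gene) of the 10 genes in the 6 sperm libraries, with dots for libraries, lines for group means and bars for the SD (n = 2). Ppp1r15a and Egr2 are low in Ctrl-F1 only, Gadd45g is highest in KO-F1, and Fos, Junb and Atf3 are highest in KO-F2, where Junb reached 401 and 468 CPM.

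Per kilobase of exon, Junb (236 CPM per kb) and Fos (124) led in KO-F2 spermatozoa, followed by Atf3 (50.5), Jun (36.2) and Egr1 (31.3), of which Jun and Egr1 overlapped. In KO-F1 spermatozoa Gadd45g (65.0 CPM per kb), Junb (40.9) and Ppp1r15a (24.2) led, and each neighbouring pair from Ppp1r15a down to Fosb (2.43) overlapped. In Ctrl-F1 spermatozoa Junb (31.2) and Fos (30.3) led and overlapped, and Ppp1r15a (1.56) and Egr2 (0.122) were the lowest of the 10. In liver Gadd45g and Junb led in both groups, at 11.9 and 8.37 CPM per kb in Ctrl-F1, where they overlapped, and 40.8 and 18.8 in KO-F1, where they did not.

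The share of counts on Rn45s, the ribosomal RNA precursor, was 13.3% and 3.52% in KO-F2 and 15.7 to 28.7% in F1 spermatozoa. The leukocyte markers moved with the KO-F2 pattern of the AP-1 genes. Of these, 10 of 13 were higher in every KO-F2 library than in both Ctrl-F1 libraries, beside 28.6% of all genes tested. Against both KO-F1 libraries 12 of 13 were higher, beside 33.9%. Against KO-F1, 17 of 20 late spermatogenesis markers were also higher in KO-F2 and 12 of 17 epididymal epithelium markers lower, beside 33.9% and 32.3% of all genes. Another 3 epididymal epithelium markers were higher there. Against Ctrl-F1 that list was split in KO-F2, with 5 of 17 higher and 7 lower, beside 28.6% and 19.4% of all genes. Markers were compared in CPM of the library total and all genes in normalised CPM. The part of these markers and of Rn45s in the result was not tested. In KO-F1 against Ctrl-F1 spermatozoa, 28.6% of all genes tested were higher and 25.4% lower without overlap. Of the leukocyte markers, 0 of 13 were higher and 1 was lower in every KO-F1 library than in Ctrl-F1. Late spermatogenesis markers were lower in every KO-F1 library for 17 of 20 and higher for 1. Epididymal epithelium markers were higher for 8 of 17 and lower for 1. The part of any of these lists in the KO-F1 values of Ppp1r15a, Egr2 and Gadd45g was not tested.

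**Figure D2:**
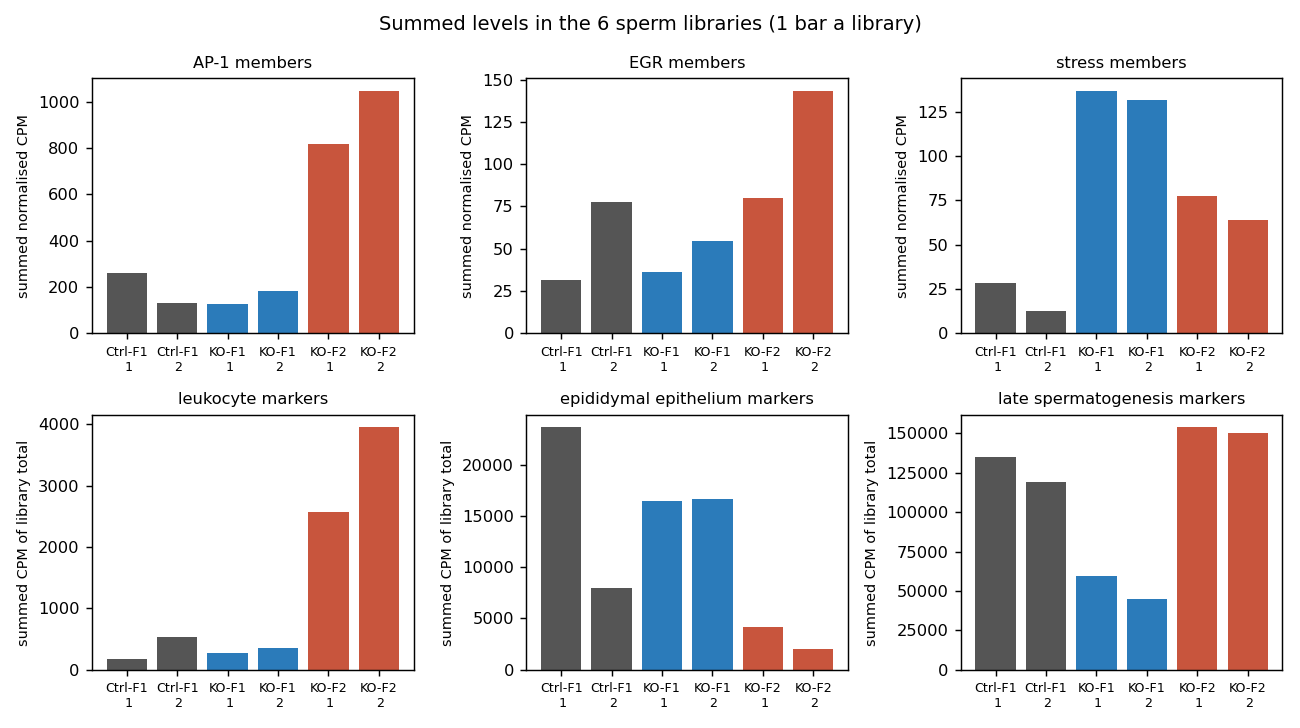
Summed normalised CPM of the AP-1, EGR and stress genes (upper row) and summed CPM of 3 marker lists (lower row), with 1 bar per sperm library on axes that start at 0. The AP-1 sum and the leukocyte sum are both highest in the 2 KO-F2 libraries, the stress gene sum is highest in KO-F1 and the late spermatogenesis sum is lowest there.

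Counts of calls in spermatozoa describe the contrasts that chose the genes, and nothing is read from them. A call needed a fold of 2 or more together with an adjusted p (Benjamini-Hochberg, all genes tested) under 0.01. Between KO-F1 and Ctrl-F1 spermatozoa edgeR called 0 of the 10 and 0% of all 10785 genes tested, of which 2105 had an unadjusted p under 0.05. DESeq2 called Ppp1r15a and Gadd45g higher, where it called 0.744% of all genes higher and 1.58% lower. It gave Egr2, Fosb, Atf3 and Gadd45b no adjusted p, so these could not be called. Egr2, Gadd45g, Junb and Ppp1r15a were higher without overlap (28.6% of genes tested) and Atf3 and Egr1 lower (25.4%). The directions of the genes below the controls rest on the scaling. Scaled to late spermatogenesis markers, the median of all genes moved from 0.02 to 1.76 and the log2 fold changes of Fos, Fosb, Jun, Atf3, Egr1 and Gadd45b turned positive, for example from -0.80 to 1.02 for Fos, all of them below that median, while Egr2 (7.70), Gadd45g (5.69), Ppp1r15a (5.61) and Junb (2.09) lay above it. Leaving out Ctrl-F1 replicate 1 also turned Fosb, Jun and Gadd45b, and leaving out KO-F1 replicate 1 turned Fosb.

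Between KO-F2 and Ctrl-F1 spermatozoa edgeR called 0 of the 10 and 0% of 13149 genes, of which 1960 had an unadjusted p under 0.05. DESeq2 called Atf3, Fos, Junb and Ppp1r15a higher, and 0.798% of all genes higher and 0.685% lower. The edgeR log2 fold changes of the AP-1 genes were 2.91 (SE 0.38) for Junb, 2.12 (SE 0.34) for Atf3, 2.02 (SE 0.38) for Fos, 1.45 (SE 0.75) for Jun and 1.16 (SE 0.75) for Fosb. Without overlap, 8 of the 10 were higher, that is all but Egr1 and Gadd45b, and 0 lower, beside 28.6% and 19.4% of genes tested. The difference of Gadd45b (0.18, SE 0.63) turned to -0.25 without Ctrl-F1 replicate 2.

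Between KO-F2 and KO-F1 spermatozoa edgeR called Junb (2.71, SE 0.32) and 2.31% of 13517 genes. DESeq2 called Atf3, Egr1, Fos, Jun and Junb higher and Gadd45g lower, beside 7.48% of genes higher and 3.52% lower. The largest differences were those of Atf3 (3.36, SE 0.74), Fos (2.97, SE 0.62) and Jun (2.75, SE 0.48), while Ppp1r15a (-0.16, SE 0.37) and Egr2 (-0.49, SE 0.53) were within 1 SE of no difference. Without overlap, 7 of the 10 were higher and Gadd45g was lower, beside 33.9% and 32.3% of genes. Leaving out KO-F1 replicate 2 turned the difference of Egr2 to 0.12, and that of Ppp1r15a turned without KO-F1 replicate 2 or KO-F2 replicate 2. Late spermatogenesis scaling moved the median of all genes from 0.13 to -1.85 and took the difference of Junb to 0.73, under the fold a call needs. Fos fell to 0.93, Atf3 to 1.29, Jun to 0.83 and Egr1 to 0.40 under it, all still above that median. Fosb (-0.56) and Gadd45b (-0.86) then turned negative, beside -2.18 for Ppp1r15a, -2.50 for Egr2 and -4.42 for Gadd45g.

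**Figure D3:**
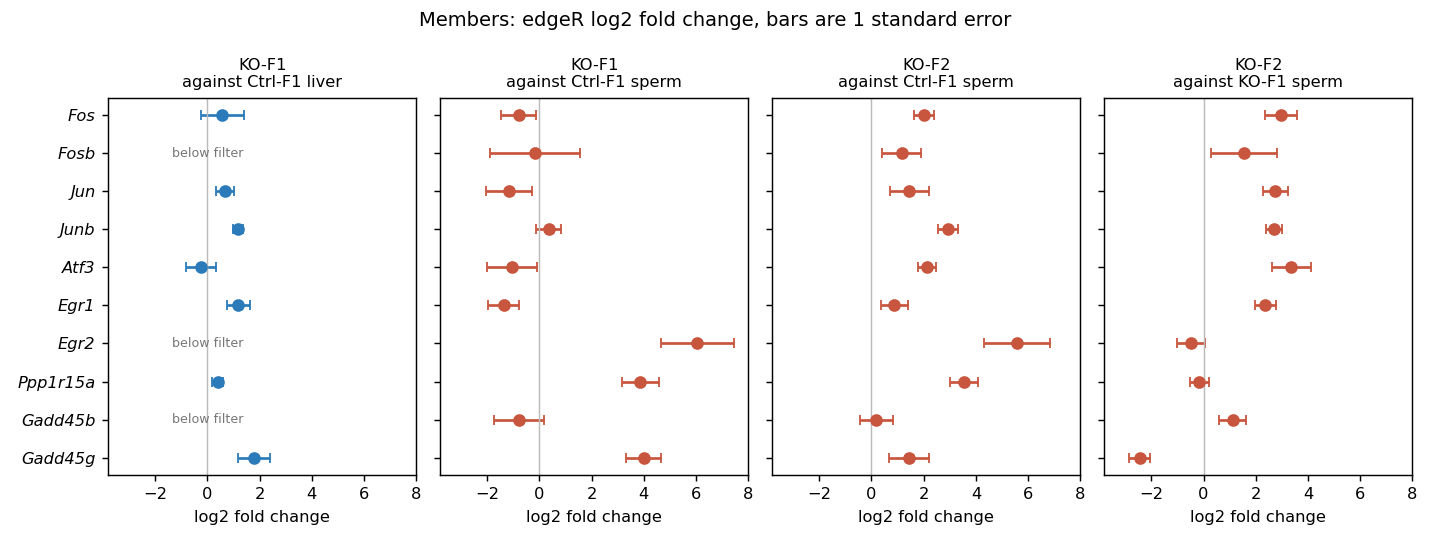
Log2 fold change (horizontal axis) of each gene in the 4 comparisons, with bars of 1 SE from edgeR. Ppp1r15a, Egr2 and Gadd45g lie to the right of 0 in KO-F1 against Ctrl-F1 spermatozoa, all 5 AP-1 genes lie there in both KO-F2 comparisons and only Junb of them (0.35) in KO-F1 spermatozoa, and 3 genes were below the filter in liver.

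The rule that chose the genes used sperm values, so liver was tested, although earlier results of the series were known when the genes were chosen. Junb stood at 15.2 and 15.6 CPM in the controls and 30.1 and 39.2 CPM in KO-F1 liver (normalised over the 4 liver libraries), and both KO-F1 libraries lay above both controls. Its log2 fold change was 1.17 (SE 0.19), which passed the threshold with DESeq2 (adjusted p = 0.00507) but not with edgeR (adjusted p = 0.252). Gadd45g stood at 22.0 and 3.76 CPM in the controls and 35.9 and 52.4 in KO-F1 liver. Its groups did not overlap, but the controls differed 5.84-fold from each other, and the log2 fold change of 1.78 (SE 0.62) did not pass edgeR's test (adjusted p = 0.493). Without Ctrl-F1 liver replicate 1 it was 3.55 and was called, a fit in which the single control is assumed to vary like the KO-F1 pair.

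Egr1 stood at 2.7 and 2.55 CPM in the controls and 8.16 and 3.79 in KO-F1 liver (log2 fold change 1.19, SE 0.44, edgeR adjusted p = 0.508). Ppp1r15a was at 11.2 and 14.8 CPM in the controls and 18.8 and 15.6 in KO-F1 liver (0.40, SE 0.22, edgeR adjusted p = 0.589). Neither difference passed the test, although the groups did not overlap. Jun stood at 8.74 and 11.8 against 21.9 and 10.8 CPM, Fos at 0.213 and 1.01 against 0.652 and 1.2 CPM and Atf3 at 1.49 and 1.54 against 1.71 and 0.833 CPM, and the groups of each overlapped. The sign of Fos turned without Ctrl-F1 liver replicate 1 (-0.13) and that of Atf3 without KO-F1 liver replicate 2 (0.17). Fosb (0 and 0 against 1 and 0 counts), Egr2 (0 and 1 against 4 and 0) and Gadd45b (2 and 9 against 3 and 4) were too low to be tested.

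In liver edgeR called 0 of the 7 genes tested and 0% of all 11505, of which 1083 had an unadjusted p under 0.05. DESeq2 called Junb alone of the 10, beside 0.0452% of genes higher and 0.084% lower. It gave Fos, Fosb, Atf3, Egr1, Egr2 and Gadd45b no adjusted p, so these could not be called. Of the 7 tested, 4 were higher without overlap and 0 lower, beside 20.2% and 21.4% of all genes tested. Leukocyte markers summed to 98.3 and 153 CPM in the controls and 101 and 189 in KO-F1 liver, with 1 of 13 higher without overlap. The Rn45s share was 0.636% and 0.706% in Ctrl-F1 against 1.21% and 1.59% in KO-F1 liver, without overlap, as for Junb and for Dusp1, Socs3 and Klf10 described later, and its part in these differences was not tested. Permuting the labels of 1 gene exactly has 0.333 as its smallest two-sided p when each group has 2 libraries.

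**Figure D4:**
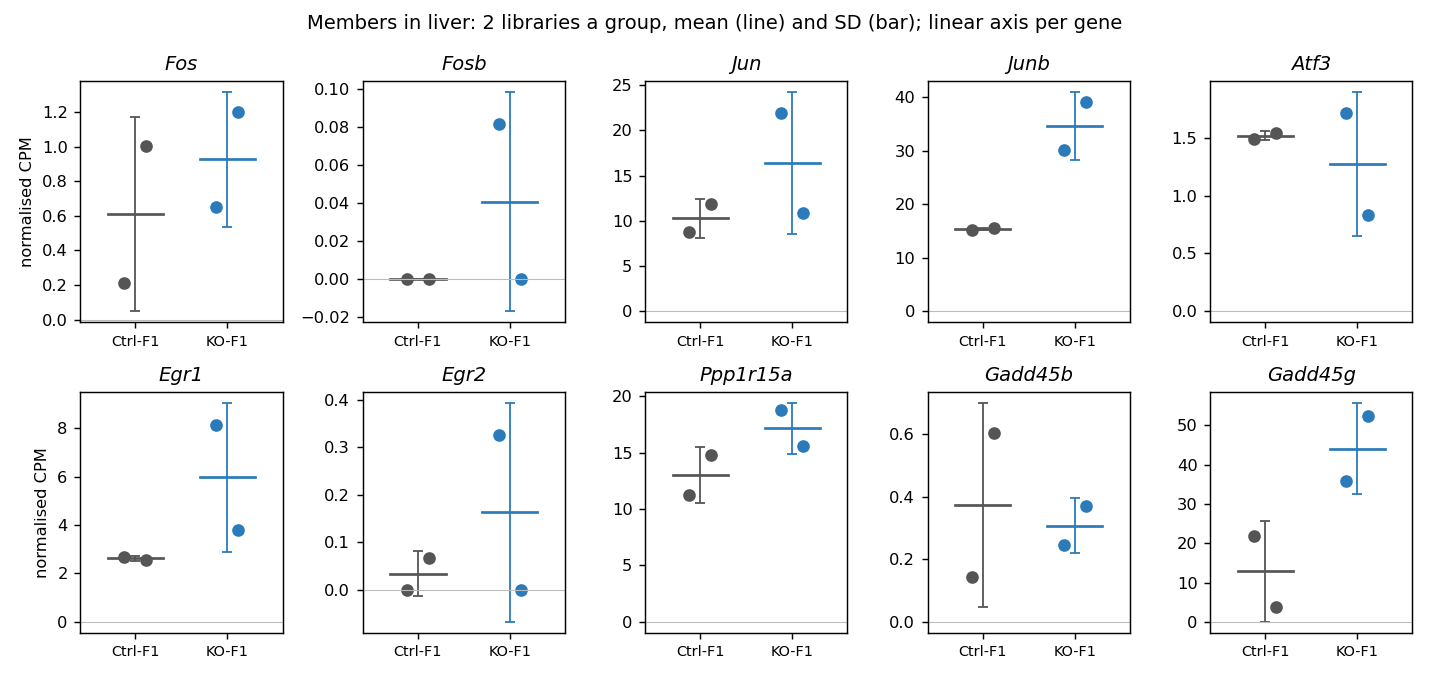
Normalised CPM (linear vertical axis, scaled per gene) of the 10 genes in the 4 liver libraries, with dots for libraries, lines for means and bars for the SD (n = 2). Junb is at 30.1 and 39.2 in KO-F1 against 15.2 and 15.6 CPM in Ctrl-F1, and the Gadd45g controls lie far apart.

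Another 90 genes of the same pathways, in 7 lists, were read in the same fits. In KO-F1 liver 37 of the 76 tested were higher and 39 lower, with a median log2 fold change of -0.03 beside -0.01 over all genes. DESeq2 called 3 of them, all higher, beside 0.0452% of all genes higher and 0.084% lower, and edgeR called 0, beside 0% of all genes. Dusp1, a phosphatase that switches off MAP kinases, stood at 16.8 and 12.4 CPM in the controls and 42.6 and 47.5 in KO-F1 liver (edgeR log2 fold change 1.63, SE 0.19, adjusted p = 0.0796, and DESeq2 adjusted p = 8.76e-07). Socs3, the inhibitor of cytokine receptor signalling, was at 3.48 and 5.04 against 14.8 and 43.5 CPM (2.77, SE 0.48, edgeR adjusted p = 0.282, DESeq2 adjusted p = 2.59e-07). Klf10, a TGF-β early gene, was at 23.9 and 17.3 against 62.4 and 45.4 CPM (1.39, SE 0.22, edgeR adjusted p = 0.252, DESeq2 adjusted p = 0.000188). All 3 lay above both controls in each KO-F1 liver library. With these 3 included, 17 of the 76 pathway genes were higher without overlap and 16 lower. These shares are near the 20.2% and 21.4% of all genes tested. The largest other differences were those of Myc (1.73, SE 0.51) and Csrnp1 (1.02, SE 0.21) upward and Batf3 (-1.30, SE 0.71) and Asns (-1.17, SE 0.68) downward, none of which was called by either tool.

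In KO-F1 spermatozoa 38 of 68 pathway genes tested were higher than in Ctrl-F1 and 30 lower, with a median of 0.17 beside 0.02 over all genes. Atf4, the central transcription factor of the integrated stress response, was the only one that DESeq2 called, beside 0.744% of all genes higher and 1.58% lower. It stood at 53.4 and 43.7 CPM in the controls and 176 and 134 in KO-F1 (edgeR log2 fold change 1.64, SE 0.42, adjusted p = 0.14, and DESeq2 adjusted p = 0.00922). In KO-F2 spermatozoa it stood at 42.8 and 36.1 CPM, below both controls. The 17 tested genes of the integrated stress response list, Atf4 included, had a median of 0.04, with 9 higher and 8 lower. Creb1, a factor that binds the cAMP response element (2.06, SE 1.26), Klf10 (-5.20, SE 1.55) and Ier3 (-3.29, SE 1.78) had large differences as well and were not called. Klf10 had 0 and 2 and Ier3 0 and 4 counts in KO-F1, and Creb1 had 13 and 1 in the controls, so these fold changes rest on few counts. The late spermatogenesis values given above move with this comparison. The epididymal epithelium sum in KO-F1 (16480 and 16637 CPM) lay between the 2 controls (23662 and 7965 CPM). The part of either list was not tested.

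In KO-F2 spermatozoa 58 of 83 pathway genes tested were higher than in Ctrl-F1 and 25 lower, with a median of 0.51 beside 0.07 over all genes. The feedback inhibitors (11 of 12 higher, median 2.04) and the other early response genes (16 of 20 higher, median 1.20) had the highest medians, and the integrated stress response (6 of 17 higher, median -0.24) the lowest. DESeq2 called 7 higher, beside 0.798% of all genes higher and 0.685% lower, and edgeR called 0, beside 0% of all genes. Among the feedback inhibitors these were Dusp1 (edgeR log2 fold change 2.28, SE 0.48), Zfp36, which destabilises AU-rich mRNAs (2.62, SE 0.45), and Nfkbia, the inhibitor of NF-κB (2.49, SE 0.42). Of the early response genes they were Ier2 (1.74, SE 0.35), Klf2 (2.19, SE 0.36), Myc (7.45, SE 0.88) and Plk2 (5.03, SE 0.84). Myc and Plk2 had at most 1 count in either control library, so their fold changes depend on the prior count. Hspa5, the main chaperone of the endoplasmic reticulum, was the only one called lower (-2.23, SE 0.36), at 1167 and 800 CPM in the controls and 185 and 234 in KO-F2. Batf (7.49, SE 1.99), with 0 counts in both controls, Dusp6 (4.70, SE 1.26), Ctgf (-3.34, SE 1.80) and Atf5 (-1.89, SE 0.73) were not called by either tool. Dusp6 had 1 and 0 counts in the controls, and Ctgf had 0 and 116, so that its fold change rests on 1 control library. Leukocyte markers were higher here as given above, and their part was not tested.

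Set against KO-F1, KO-F2 spermatozoa had 51 of 84 tested pathway genes above and 33 below, with a median of 0.55 beside 0.13 over all genes. EdgeR called 3, all higher, beside 2.31% of all genes, which is near the share among the pathway genes. Nr4a1, an orphan nuclear receptor induced as an early gene, stood at 29.5 and 30.3 CPM in KO-F1 and 166 and 214 in KO-F2 (log2 fold change 2.84, SE 0.33, edgeR adjusted p = 0.00911). Ier3, a survival factor under NF-κB control, had 0 and 4 counts in KO-F1 and 420 and 484 in KO-F2 (6.16, SE 0.91, edgeR adjusted p = 0.0099). Herpud1, a component of endoplasmic reticulum degradation, was at 54.5 and 90.8 against 391 and 404 CPM (2.63, SE 0.38, edgeR adjusted p = 0.0098). In Ctrl-F1 spermatozoa these 3 stood at 30.6 and 88.2, 5.17 and 11.8, and 244 and 168 CPM, all below KO-F2.

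DESeq2 called 13 pathway genes higher and 3 lower in that comparison, beside 7.48% of all genes higher and 3.52% lower. Besides the 3 above, the higher ones were Cebpb (edgeR log2 fold change 2.75, SE 0.47), Dusp2 (5.01, SE 1.01), Ier2 (1.63, SE 0.33), Klf6 (1.87, SE 0.41), Klf10 (5.24, SE 1.19), Nfkbia (1.92, SE 0.38), Sik1 (2.66, SE 0.58), Tnfaip3 (2.62, SE 0.69), Zfp36 (2.48, SE 0.44) and Zfp36l1 (1.57, SE 0.44). The lower ones were Atf4 (-1.79, SE 0.33), Hspa5 (-1.53, SE 0.37) and Nab2, a corepressor of EGR proteins (-1.75, SE 0.42). Klf10 had 0 and 2 and Dusp2 3 and 0 counts in KO-F1, so that their fold changes depend on the prior count. Batf (7.65, SE 1.84), Myc (5.11, SE 1.03), Maff (-2.10, SE 0.72) and Sesn2 (-1.81, SE 0.52) were the largest others and were not called. Batf had 0 and 0 and Myc 0 and 9 counts in KO-F1. Leukocyte markers were higher in this comparison, as were 17 of 20 late spermatogenesis markers, while 12 of 17 epididymal epithelium markers were lower. Beside these, 33.9% of all genes tested were higher and 32.3% lower without overlap. The ribosomal Rn45s share was lower. The part of any of these was not tested.

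**Figure D5:**
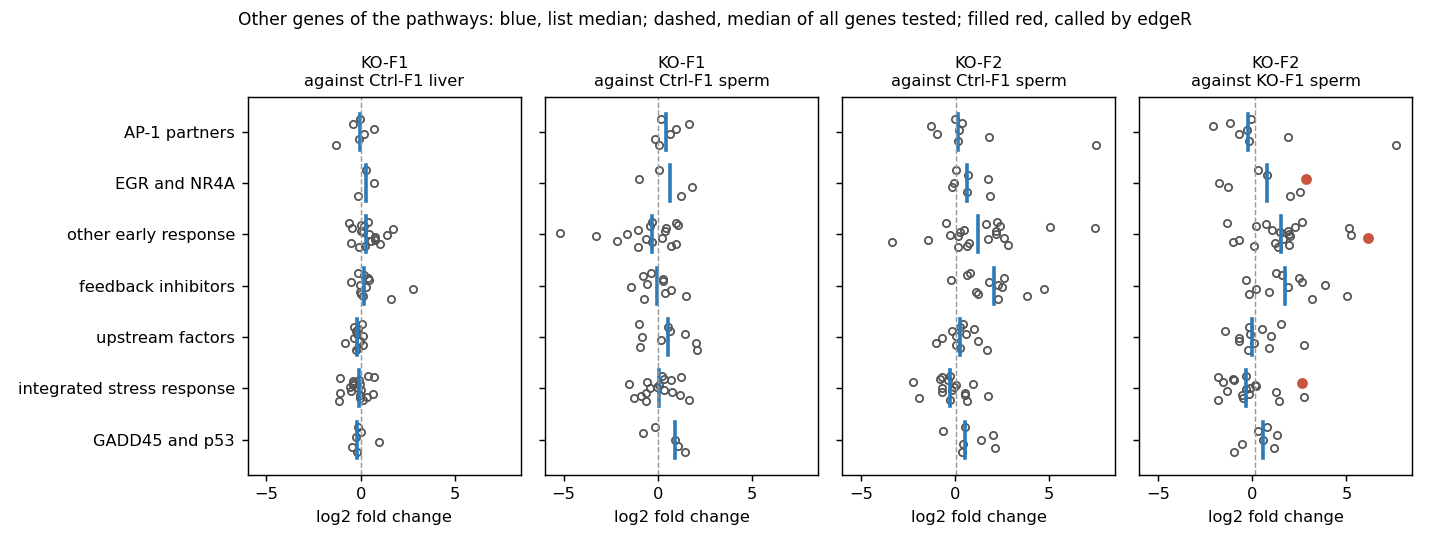
Log2 fold change (horizontal axis) of each tested gene of the 7 pathway lists in the 4 comparisons, with blue bars for list medians, a dashed line for the median of all genes tested and filled red points for edgeR calls. The feedback inhibitors and other early response genes have the highest medians in KO-F2 against Ctrl-F1 (2.04 and 1.20), and 3 genes are called between KO-F2 and KO-F1.

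Likeness to Ppp1r15a and Egr2 was measured as Pearson's r of log2(CPM + 1) over the 6 sperm libraries among 14245 genes with at least 10 counts in 2 libraries, as a description of points that share 3 groups. Ppp1r15a was nearest to Zfp777 (0.997), Fchsd1 (0.996), Ncoa6 (0.992), Rb1 (0.992) and Pdk3 (0.992). Egr2 was nearest to 4930444A02Rik (0.994), Cacnb3 (0.988), Zfp710 (0.987), Smyd4 (0.986) and Bcs1l (0.986). Zfp777, for example, stood at 0.431 and 0 CPM in the controls and 7.44 and 10.2 in KO-F1. Within the 10 genes, Ppp1r15a and Egr2 had an r of 0.952 with each other. Both were chosen for being higher in both KO generations of these libraries, so a high r between them followed from the choice. With Ppp1r15a, Gadd45g had an r of 0.8, and of the AP-1 genes Junb had 0.548 and the other 4 between 0.0732 and 0.175.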

How the data were processed

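RNA-seq counts of 10 libraries were analysed, and 37 other samples (ChIP-seq and embryos) were not analysed here. The authors aligned single-end reads to mm10 (GRCm38) with HISAT2 2.1.0 and deposited raw counts per gene symbol from featureCounts. The annotation and strand setting are not given in the sources used here. Liver libraries were stranded mRNA, and sperm libraries amplified cDNA. Each file held 23420 lines, and the 4 lines of 2 repeated symbols were dropped. No other column of sample values was present.

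Counts were compared with edgeR 4.0.16 (R 4.3.3, TMM normalization, filterByExpr defaults, quasi-likelihood F test) over all genes, and with DESeq2 1.42.0 as an alternative. DESeq2 gives some genes no adjusted p and so cannot call them. Its shares of all genes are taken over every gene with a p, these included. The fits were tested on simulated data. The members and gene lists were chosen with earlier results of these data known. Named pathway genes are those called by either tool and the 2 largest others in each direction per comparison, of which 1 is not reported here. Sperm contrasts of the 10 genes are described without p-values. Other alternatives were DESeq2 size factors, late spermatogenesis scaling, exclusion of Rn45s and Lars2, other filters, a replicate block, 1 model of all sperm groups, an adjusted p under 0.05 and leaving out each library. Replicates were separate samples, and p-values measure the spread between them. Pearson's r of log2(CPM + 1) between replicates was 0.76 in Ctrl-F1, 0.82 in KO-F1 and 0.96 in KO-F2 spermatozoa. In liver it was 0.99 in Ctrl-F1 and 0.98 in KO-F1.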

Additional observations from a re-analysis of the deposited data

Results flagged for a closer look

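Of the pathway genes, 3 of 84 tested differed between the KO generations, a share near the 2.31% of all genes called, in the edgeR test of KO-F2 against KO-F1 spermatozoa, which is also the test of the difference between their effects against the shared Ctrl-F1 libraries. The log2 differences were 2.84 for Nr4a1, 6.16 for Ier3 and 2.63 for Herpud1. Generation, background strain, run and the leukocyte marker level move together in these libraries and cannot be told apart. Scaled to late spermatogenesis markers the differences were 0.86, 4.15 and 0.61 and no longer passed, and in 1 model over the 3 sperm groups Nr4a1 (2.67) and Ier3 (5.95) did not pass.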

How the results depend on the processing

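The counts of called genes depended on the test and the filter. With DESeq2 the called members were 1 in liver, 2 in KO-F1, 4 in KO-F2 against Ctrl-F1 and 6 in KO-F2 against KO-F1 spermatozoa, and the called pathway genes 3, 1, 8 and 16. With no filter, members were 1, 3, 1 and 6 and pathway genes 3 in liver, 1 in KO-F2 against Ctrl-F1 and 23 between KO generations. With at least 10 counts in every library, 6 members and 17 pathway genes were called between KO generations, and at an adjusted p under 0.05, 6 and 23. Late spermatogenesis scaling gave 2 members and 2 pathway genes in KO-F1, and 2 and 20 between KO generations. Without Rn45s and Lars2, 2 members were called there, beside 3.94% of all genes. There 1 model over the 3 sperm groups gave 1 pathway gene, beside 1.61% of all genes. Calls over all genes moved too: in liver they were 0.129% with DESeq2 and 0.161% with no filter, and between KO generations they went from 2.31% to 11% with DESeq2, 13.6% with no filter, 20.4% at 10 counts or at an adjusted p under 0.05 and 27.7% with late spermatogenesis scaling. In KO-F1 they were 2.32% with DESeq2, 0.672% with no filter and 3.14% with that scaling, and in KO-F2 against Ctrl-F1 1.48% and 0.209% with the first 2. The cause of these changes was not tested.

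Replicate numbers pair the samples by number only. The correlation of same-numbered deviations was -0.102 in liver, -0.0089 in KO-F1, 0.134 in KO-F2 against Ctrl-F1 and 0.0562 between KO generations. With the replicate block, 1 pathway gene was called in liver, 4 members and 13 pathway genes in KO-F2 against Ctrl-F1, and 6 and 7 between KO generations, beside 0.0174%, 2.75% and 6.06% of all genes. A crossed block in liver, chosen after seeing the data, called 0 of either.

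Leaving out 1 library at a time, the called members ranged from 0 to 1 in liver (1 without Ctrl-F1 replicate 1), 1 to 3 in KO-F2 against Ctrl-F1 (3 without Ctrl-F1 replicate 2) and 1 to 7 between KO generations (7 without KO-F1 replicate 2). The pathway genes ranged from 0 to 6 in liver (6 without Ctrl-F1 replicate 1), 1 to 8 in KO-F2 against Ctrl-F1 (8 without Ctrl-F1 replicate 2) and 4 to 29 between KO generations (29 without KO-F1 replicate 2). In KO-F1 spermatozoa both stayed at 0. Without those libraries 0.905%, 1.84% and 19.2% of all genes were called. Scaling CPM by library totals kept 91 of 100 levels of the 10 genes within 1 SD. F1 sperm depth limits genes below about 2.0 CPM.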
